A study of Mus musculus with 10 samples.

Results

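The 8 SMAD genes of the mouse (Smad1, Smad2, Smad3, Smad4, Smad5, Smad6, Smad7 and Smad9) and the BMP target genes Id1 and Id3 were followed in 10 mammary tumors, and these 10 genes are 10 of the 19505 genes with a value on the arrays. They were taken by gene name as a family with differences between these same tumors already known, so their values are given as a description and without a test. Each tumor arose from M-Wnt, a mesenchymal mammary cancer line of C57BL6J origin, of which 50000 cells were placed in mammary fat pad 4 of adult female C57BL6J mice. All the cells carried a doxycycline-inducible shRNA against Pcx, the gene of pyruvate carboxylase, which carries pyruvate into the TCA cycle as oxaloacetate. The 5 shPC tumors came from mice that drank water with doxycycline at 150 µg/ml, which switches the shRNA on, and the 5 Ctrl tumors came from mice on plain water, so an effect of doxycycline and one of the shRNA cannot be told apart. Total RNA of each whole tumor was measured on 1 Clariom S array, a microarray that reads the RNA of annotated genes.

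SMAD proteins carry the signal of the TGF-beta superfamily of growth factors into the nucleus. BMP receptors phosphorylate Smad1, Smad5 and Smad9, whereas TGF-beta and activin receptors phosphorylate Smad2 and Smad3, and both sets bind the common partner Smad4 before they act on DNA. Smad6 and Smad7 are inhibitory SMADs that are induced by the pathway and hold it back, and Id1 and Id3, which block basic helix-loop-helix transcription factors, are among the best known genes that BMP signals switch on. Signaling through SMADs is run by phosphorylation of the proteins, which an RNA array does not read.

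The start regions of the BMP SMADs and of Id3 are shown here because these genes are set side by side below. There Smad5 separated the groups, Smad1 and Id3 did not, and Smad9 was too dim to be judged. Promoters of 6 of the 10 genes were read from RefSeq sequence on build GRCm38.p6. Each run below is the 250 bases before an annotated transcription start, 5′ to 3′ on the strand of the gene, and capitals mark a match to a SMAD-type motif. For Smad5, the first of its 3 annotated starts is shown.
Smad5, chr13:56702760-56703009, plus strand: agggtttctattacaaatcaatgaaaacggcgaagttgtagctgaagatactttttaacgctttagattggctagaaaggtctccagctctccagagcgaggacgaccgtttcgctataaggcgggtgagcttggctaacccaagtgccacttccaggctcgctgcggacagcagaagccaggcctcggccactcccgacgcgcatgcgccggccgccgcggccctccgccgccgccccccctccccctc
Smad1, chr8:79399429-79399678, minus strand: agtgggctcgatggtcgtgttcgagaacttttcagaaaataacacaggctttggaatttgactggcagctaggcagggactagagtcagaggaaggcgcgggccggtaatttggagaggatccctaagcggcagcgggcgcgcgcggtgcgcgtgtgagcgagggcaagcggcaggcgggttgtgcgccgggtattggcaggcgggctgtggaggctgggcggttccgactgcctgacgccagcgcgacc
Smad9, chr3:54755332-54755581, plus strand: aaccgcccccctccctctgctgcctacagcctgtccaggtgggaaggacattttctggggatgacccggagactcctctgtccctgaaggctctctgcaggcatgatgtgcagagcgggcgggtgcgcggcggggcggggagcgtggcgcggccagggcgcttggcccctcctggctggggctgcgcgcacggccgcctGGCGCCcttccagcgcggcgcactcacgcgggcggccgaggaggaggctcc
Id3, chr4:136143572-136143821, plus strand: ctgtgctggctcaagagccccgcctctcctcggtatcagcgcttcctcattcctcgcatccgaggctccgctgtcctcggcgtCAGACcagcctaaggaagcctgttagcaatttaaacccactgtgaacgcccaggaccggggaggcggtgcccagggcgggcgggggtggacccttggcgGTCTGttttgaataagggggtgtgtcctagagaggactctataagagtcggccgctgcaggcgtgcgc
The motifs searched on both strands were CAGAC, a short SMAD box, its palindromic form GTCTAGAC, and GGCGCC, a GC-rich element bound by BMP SMADs, and none of them contains another. CAGAC was found in 42.2% of 32851 mouse promoters of the same length, GTCTAGAC in 0.167% and GGCGCC in 9.59%. Id3 held 2 matches to CAGAC, Smad9 held 1 match to GGCGCC, and the Smad1 and Smad5 runs shown held none of the 3 motifs. Of the other Smad5 starts, the second held 1 GGCGCC and the third held 1 CAGAC, and neither the Smad3 nor the Smad6 promoter held a match. The G and C content was 60% in the Smad5 run, 63.6% in Smad1, 73.2% in Smad9 and 62.8% in Id3, against a median of 52.4% over all promoters. These matches describe the letters of the windows and nothing about binding.

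Array values are signals on a log scale that is read here as log2, so a difference of 1 is a doubling, and levels of different genes are not compared with each other. Pcx had 9.91, 4.69, 9.39, 4.49 and 5.15 in shPC tumors 1 to 5, against 10.43, 7.24, 11.01, 7.79 and 9.54 in Ctrl tumors 1 to 5. Only 3 of the 5 shPC tumors lay below every Ctrl tumor, and the difference of -2.48 (SE 1.19) did not pass (limma, adjusted p = 0.378), with a two-sided exact permutation p of 0.111 over all 252 splits. The difference was -0.29 (SE 0.26) with the adipocyte marker mean as a covariate and -1.09 (SE 2.34) with the leukocyte mean. Over all genes, limma with Benjamini-Hochberg adjustment called 0 higher and 0 lower in shPC tumors, and 1521 were higher and 1219 lower at an unadjusted p under 0.05. The methods' t-test, a general rule of the study and not its stated test for array genes, also called 0 genes after adjustment. The median difference of all genes was 0.04, and arrays correlated with each other at 0.96 to 0.993. The median signal of an array was 7.16 in shPC tumor 5 and lay between 7.35 and 7.47 in the other 9. The labels name separate tumors and do not say whether any came from the same mouse, so p-values measure the spread between tumors.

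Of the 10 genes, Smad5 was the one whose groups did not overlap, with every shPC tumor above every Ctrl tumor. Over all genes the groups were apart in this way in 1.82%, and in 1.79% with shPC below, and since the genes were chosen on this contrast nothing is read from the count. Of the differences, 7 were positive and 3 negative with a median of 0.06, and 6 were smaller than 1 SE. The plot of the 10 genes by tumor shows Smad5 set apart and the remaining SMADs spread around like means.

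**Figure D1:**
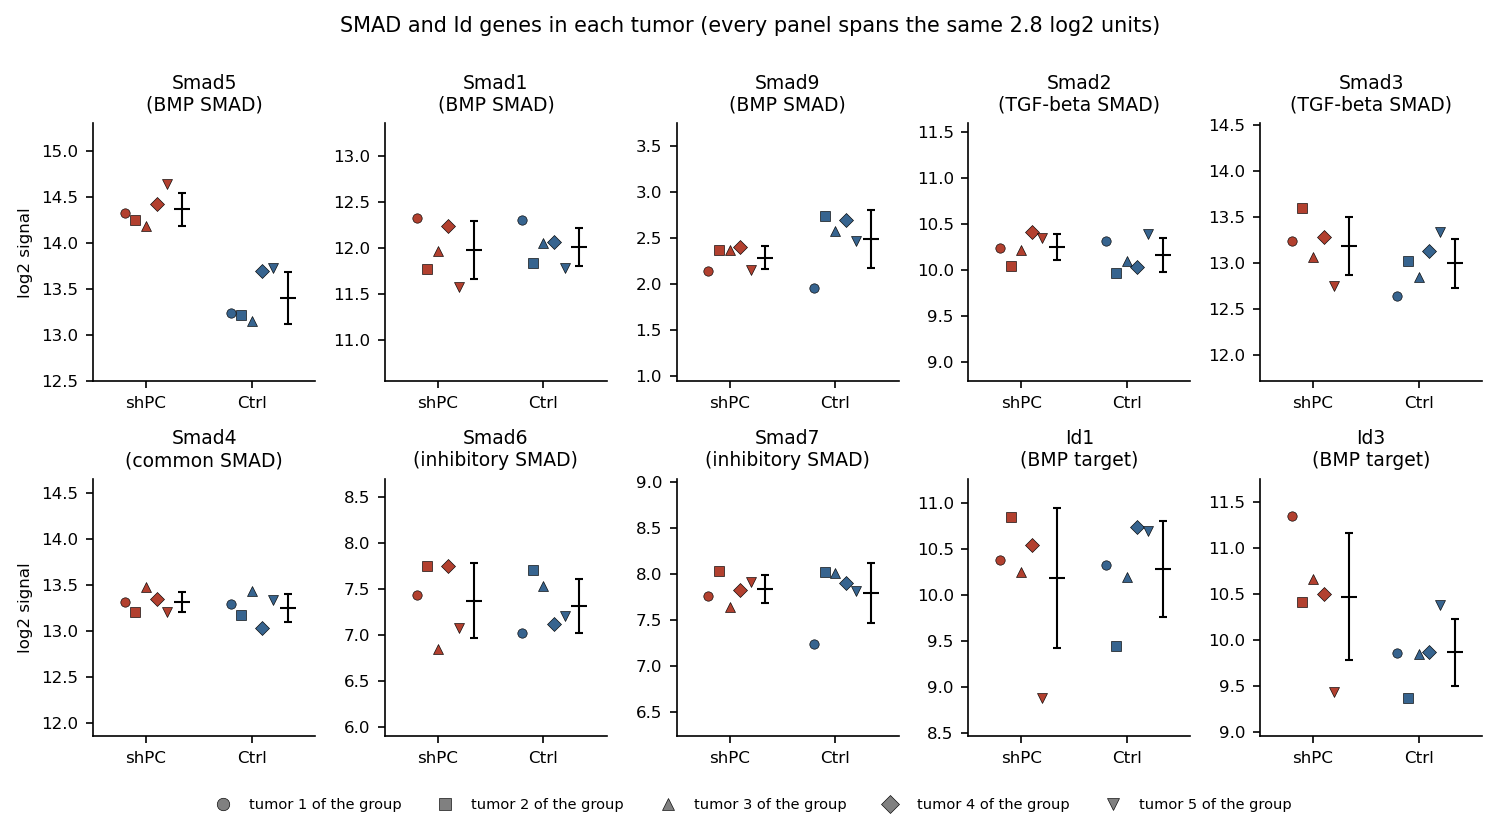
Log2 signal of the 8 SMAD and 2 Id genes in each tumor, shPC left (red) and Ctrl right (blue), each panel spanning the same number of log2 units, with the marker shape giving the tumor number within its group. Black bars are the mean and 1 SD (n = 5 each), and Smad5 is the panel in which the lowest shPC value, 14.18, lies above the highest Ctrl value, 13.72.

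Smad5, a receptor-regulated SMAD of the BMP branch, had 14.32, 14.25, 14.18, 14.42 and 14.64 in shPC tumors 1 to 5, against 13.23, 13.21, 13.15, 13.69 and 13.72 in Ctrl tumors 1 to 5. The groups were separated by a gap of 0.46, and shPC tumor 5 was the highest of all. The mean was 14.36 ± 0.18 in shPC tumors and 13.40 ± 0.28 in Ctrl tumors (SD, n = 5 each). The difference was 0.96 (SE 0.16), which is 1.95-fold with a range of 1.74 to 2.18 for 1 SE on either side. Its size exceeded that of 96.1% of all genes, while its SD within groups exceeded that of 25.7%. Because the genes were chosen with this contrast known, nothing is read from the rank of its size. With each tumor left out in turn, the difference stayed between 0.89 and 1.04.

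Smad1, the closest relative of Smad5 in sequence and function, did not show a shift beyond its error. It had 12.33, 11.77, 11.97, 12.24 and 11.58 in shPC tumors, against 12.31, 11.84, 12.06, 12.07 and 11.78 in Ctrl tumors. The ranges lay almost on top of each other, and the difference of -0.03 (SE 0.18) was a fraction of its error. The mean was 11.98 ± 0.31 in shPC tumors and 12.01 ± 0.21 in Ctrl tumors (SD, n = 5 each).

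Smad9, the third BMP SMAD, had 2.14, 2.36, 2.36, 2.40 and 2.15 in shPC tumors, against 1.95, 2.73, 2.57, 2.69 and 2.46 in Ctrl tumors. All 10 values were under the 30th percentile of their array, so Smad9 was too dim here to be read as a level, and it was the 1 gene of the 10 that did not pass a filter on dim probe sets. The shPC values all fell within the Ctrl range, and the difference was -0.20 (SE 0.16). Among the BMP SMADs, then, the shift was seen in Smad5, did not exceed the error in Smad1 and could not be judged in Smad9. Whether the differences of Smad5 and Smad1 are unequal was not tested.

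The SMADs of the TGF-beta and activin branch overlapped between the groups. Smad2 had 10.24, 10.04, 10.21, 10.41 and 10.35 in shPC tumors, against 10.31, 9.97, 10.09, 10.03 and 10.39 in Ctrl tumors. It was steady across tumors, and its difference was 0.09 (SE 0.13). Smad3 had 13.24, 13.60, 13.07, 13.29 and 12.75 in shPC tumors, against 12.64, 13.03, 12.85, 13.13 and 13.34 in Ctrl tumors. One Smad3 value, that of shPC tumor 2, lay above every Ctrl tumor, and shPC tumor 5 was low in its group. The difference of 0.19 (SE 0.19) moved between 0.09 and 0.30 as each tumor was left out.

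Smad4, the partner shared by both branches, was the steadiest of the 10. It had 13.31, 13.21, 13.48, 13.35 and 13.21 in shPC tumors, against 13.29, 13.17, 13.43, 13.03 and 13.33 in Ctrl tumors. Its SD within groups was smaller than that of all but 3.3% of genes, and the difference was 0.06 (SE 0.12).

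The inhibitory SMADs also overlapped. Smad6, which acts mainly on the BMP branch, had 7.44, 7.76, 6.85, 7.76 and 7.08 in shPC tumors, against 7.03, 7.71, 7.54, 7.12 and 7.21 in Ctrl tumors. Both groups held high and low tumors, and the difference was 0.06 (SE 0.21). Smad7, which blocks both branches, had 7.76, 8.04, 7.64, 7.83 and 7.92 in shPC tumors, against 7.24, 8.02, 8.01, 7.90 and 7.82 in Ctrl tumors. Ctrl tumor 1 stood below the rest of its group, and the difference of 0.04 (SE 0.17) ranged from -0.10 to 0.10 as tumors were left out. Ctrl tumor 1 also held skeletal muscle signal, with a muscle marker mean of 9.90 there and 4.04 to 5.07 in the other Ctrl tumors. Of the keratins, Krt14 was at 14.67 there and 3.51 to 5.69 in the others, and Krt5 at 14.24 against 4.18 to 5.85. Krt8 and Krt19 went the other way, with Ctrl tumor 1 the lowest Ctrl tumor at 5.26 and 5.91. Krt18 at 6.42 lay within the range of the other Ctrl tumors. Without Ctrl tumor 1 and shPC tumor 5 together, the difference was -0.12 for Smad7, 0.85 for Smad5 and 0.86 for Id3.

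The Id genes varied far more from tumor to tumor than the SMADs. Id3 had 11.34, 10.41, 10.66, 10.50 and 9.43 in shPC tumors, against 9.85, 9.36, 9.84, 9.87 and 10.38 in Ctrl tumors. Of the shPC tumors, 4 lay above every Ctrl tumor, while shPC tumor 5 was below 4 of the 5 Ctrl tumors. The mean was 10.47 ± 0.69 in shPC tumors and 9.86 ± 0.36 in Ctrl tumors (SD, n = 5 each), a difference of 0.61 (SE 0.31), or 1.52-fold. Single tumors set its size, since it was 0.39 without shPC tumor 1 and 0.87 without shPC tumor 5.

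Id1 had 10.39, 10.85, 10.26, 10.55 and 8.89 in shPC tumors, against 10.33, 9.45, 10.20, 10.74 and 10.70 in Ctrl tumors. The low values of shPC tumor 5 and Ctrl tumor 2 set the spread, which exceeded that of 91.0% of genes. The difference was -0.10 (SE 0.36) and turned to 0.23 without shPC tumor 5, so it has no settled direction. shPC tumor 5 was thus the lowest of its group for Smad1, Smad3, Id1 and Id3, and the highest for Smad5.

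**Figure D2:**
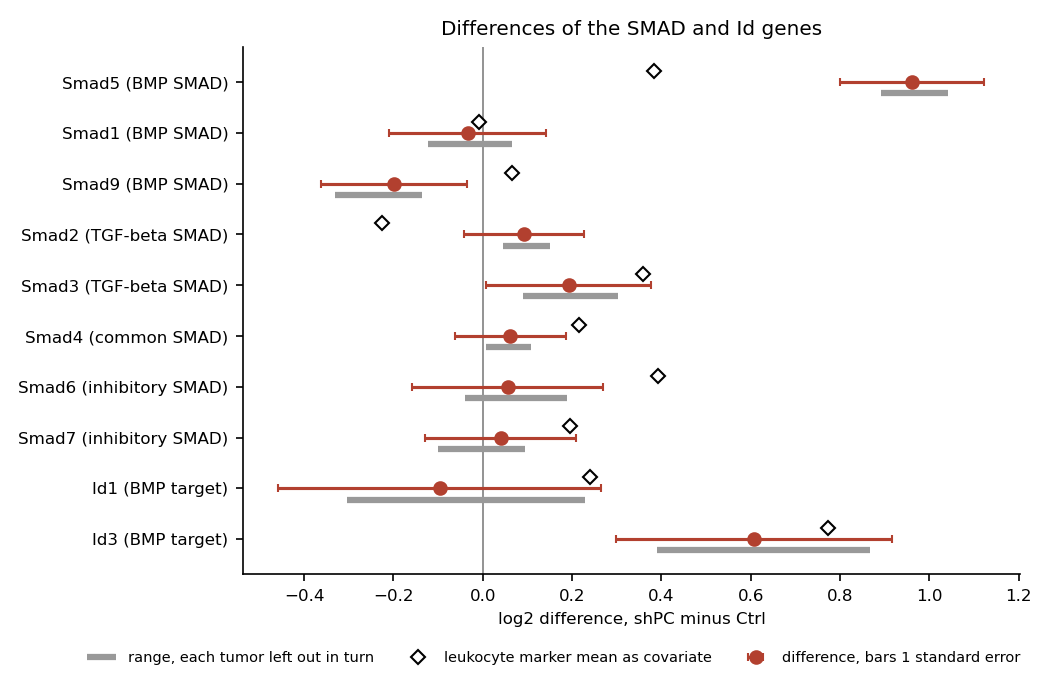
Difference of each SMAD and Id gene in log2 units, shPC minus Ctrl (red points, bars 1 SE, n = 5 each), with the range when each tumor is left out in turn (grey) and the value when the mean of the leukocyte markers is a covariate (open diamonds). Smad5 lies at 0.96 and at 0.38 with that covariate, and the bars of Smad1, Smad2, Smad4, Smad6, Smad7 and Id1 reach across 0.

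A whole tumor holds cancer cells, leukocytes, fibroblasts, vessels and fat, and in such bulk RNA fewer cells of a type and less RNA per cell cannot be told apart. Leukocyte markers differed in mean between the groups. All 10 genes of a list of general leukocyte markers were lower in mean in shPC tumors. Their mean signal lay between 13.01 and 13.53 in shPC tumors and between 13.71 and 14.11 in Ctrl tumors. Of the 10, 0 passed adjustment (limma), and 8 were lower at an unadjusted p under 0.05, as 6.25% of all genes were. Ptprc, the pan-leukocyte marker CD45, was at 13.67 to 14.70 in shPC tumors and 14.93 to 15.59 in Ctrl tumors.

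The order of Smad5 was the reverse of that of the leukocyte list. Within the shPC group, the order of the tumors from highest to lowest Smad5 was the order from lowest to highest leukocyte mean, and the same held within the Ctrl group. At the ends, shPC tumor 5 had the highest Smad5 and the lowest leukocyte mean of its group (14.64 and 13.01), as Ctrl tumor 5 had in its own (13.72 and 13.71). With only 5 tumors in each group and groups set apart on both measures, no correlation is given. Such an order was not particular to leukocytes. The mean of a list of proliferation markers ran in nearly the same order as Smad5, with tumor 3 the lowest and tumor 2 the next in each group. That list was not used as a covariate. With the leukocyte mean as a covariate the difference of Smad5 was 0.38 (SE 0.24), against 0.96 without it, while with an endothelial or an adipocyte list it was 0.98 and 0.86. Because the leukocyte means of the groups do not overlap, that fit could not separate group from leukocyte level well, and the part of leukocytes in the Smad5 difference was not tested beyond it. The same limit holds for every other gene given with the leukocyte covariate. The same covariate gave 0.77 (SE 0.62) for Id3, 0.22 (SE 0.24) for Smad4 and -0.23 (SE 0.24) for Smad2.

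Other lists also differed in mean. All 8 T and NK cell markers were lower in mean in shPC tumors, at list means of 6.72 to 10.57 in shPC tumors and 10.48 to 11.68 in Ctrl tumors, with the lowest in shPC tumor 5. All 9 adipocyte markers were lower in mean and spread widely, at 6.72 to 12.06 in shPC tumors and 9.20 to 13.05 in Ctrl tumors. The 5 proliferation markers were higher in mean, at 12.14 to 12.90 in shPC tumors and 11.41 to 12.33 in Ctrl tumors, as were the 5 markers of mesenchymal tumor cells, at 13.80 to 14.44 in shPC tumors and 13.46 to 13.89 in Ctrl tumors. In both of these lists shPC tumor 5, the tumor with the most Smad5 signal, was the highest of all tumors. Of the mesenchymal list, Cdh2 differed most, by 1.01 (SE 0.33), and was at 12.22 in shPC tumor 5. The differences were 0.25 for Twist1, 0.18 for Fn1, 0.13 for Zeb1 and 0.03 for Vim. No gene of these 4 lists passed adjustment (limma), and 7 T and NK cell, 0 adipocyte, 3 proliferation and 1 mesenchymal marker had an unadjusted p under 0.05. Of all genes, 6.25% were lower and 7.8% higher at that level. Their part in the SMAD values was not tested. Vim, a defining gene of mesenchymal cells, was above the 30th percentile on all 10 arrays with 17.50 to 17.66 in shPC tumors and 17.48 to 17.63 in Ctrl tumors, and the epithelial gene Epcam was at 3.78 to 7.74 in shPC tumors and 7.06 to 9.33 in Ctrl tumors.

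**Figure D3:**
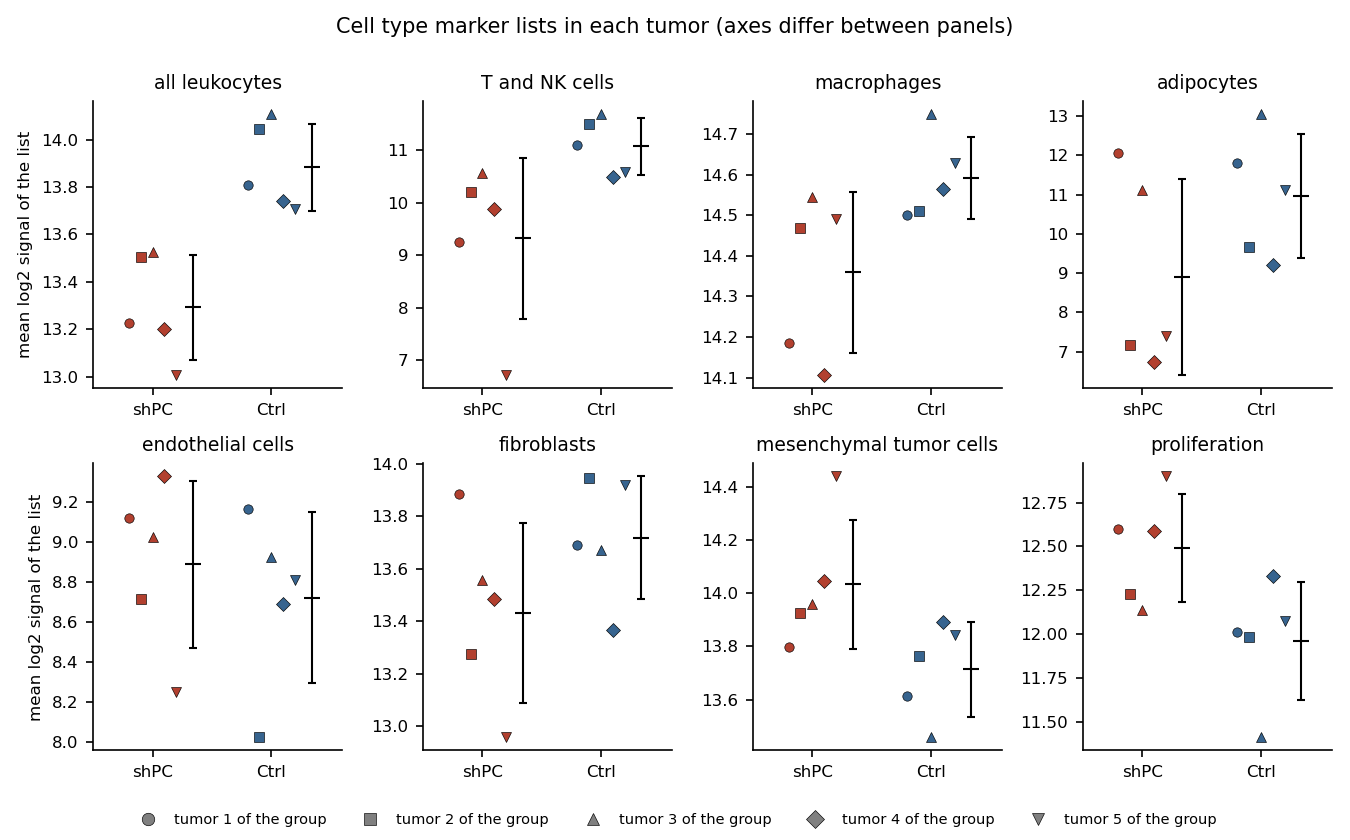
Mean log2 signal of 8 marker lists in each tumor, shPC left (red) and Ctrl right (blue), with marker shapes for the tumor number, black bars for the mean and 1 SD (n = 5 each), and an axis of its own in each panel. The list of all leukocytes is the 1 panel in which the groups do not overlap, with 13.01 to 13.53 in shPC tumors and 13.71 to 14.11 in Ctrl tumors.

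The genes whose pattern over the tumors was most like that of Smad5 were sought with the group means removed, by Pearson's r over the 10 tumors and 13263 genes that were not dim, as a description and without a test. The highest were Acat1, a mitochondrial thiolase, at 0.965, the T-box factor Tbx2 at 0.957, the fucosyltransferase Fut10 at 0.955, the cAMP phosphodiesterase Pde4a at 0.951 and Gtf3c4, a subunit of the RNA polymerase III factor TFIIIC, at 0.941. The most opposed were Lrrn4cl at -0.970, Add3, a membrane skeleton adducin, at -0.956, B4galnt1, a ganglioside synthase, at -0.940, the sorting nexin Snx11 at -0.925 and Zfp36, an mRNA decay factor, at -0.921. These 10 genes are the ends of 13263 values of r over 10 tumors. An r of this size can come from the search alone, so nothing is read from it. None of these 10 genes belongs to the pathway lists. Acat1 itself overlapped between the groups, with 13.86, 13.70, 13.67, 13.82 and 13.97 in shPC tumors, against 13.55, 13.63, 13.50, 13.90 and 13.97 in Ctrl tumors.

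Around the SMADs, 119 genes of the BMP and TGF-beta pathways were read from 9 lists by role. Of these, 0 were higher and 0 lower after adjustment (limma), against 0% of all genes in either direction. At an unadjusted p under 0.05, 11 of the 119 were higher and 9 lower, where 7.8% of all genes were higher and 6.25% lower. The median difference was 0.01 over the 119 genes and 0.04 over all genes. The groups were apart with shPC above for 3 of the 119 (Bmp8a, Bmpr2 and Pmepa1), as they were for 1.82% of all genes. They were apart with shPC below for 1 of the 119 (Fst), as for 1.79% of all genes, and nothing is read from these counts. None of the 119 passed the threshold, and for the 36 picked by smallest p, 4 per list, adjusted p-values lay between 0.18 and 0.70.

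**Figure D4:**
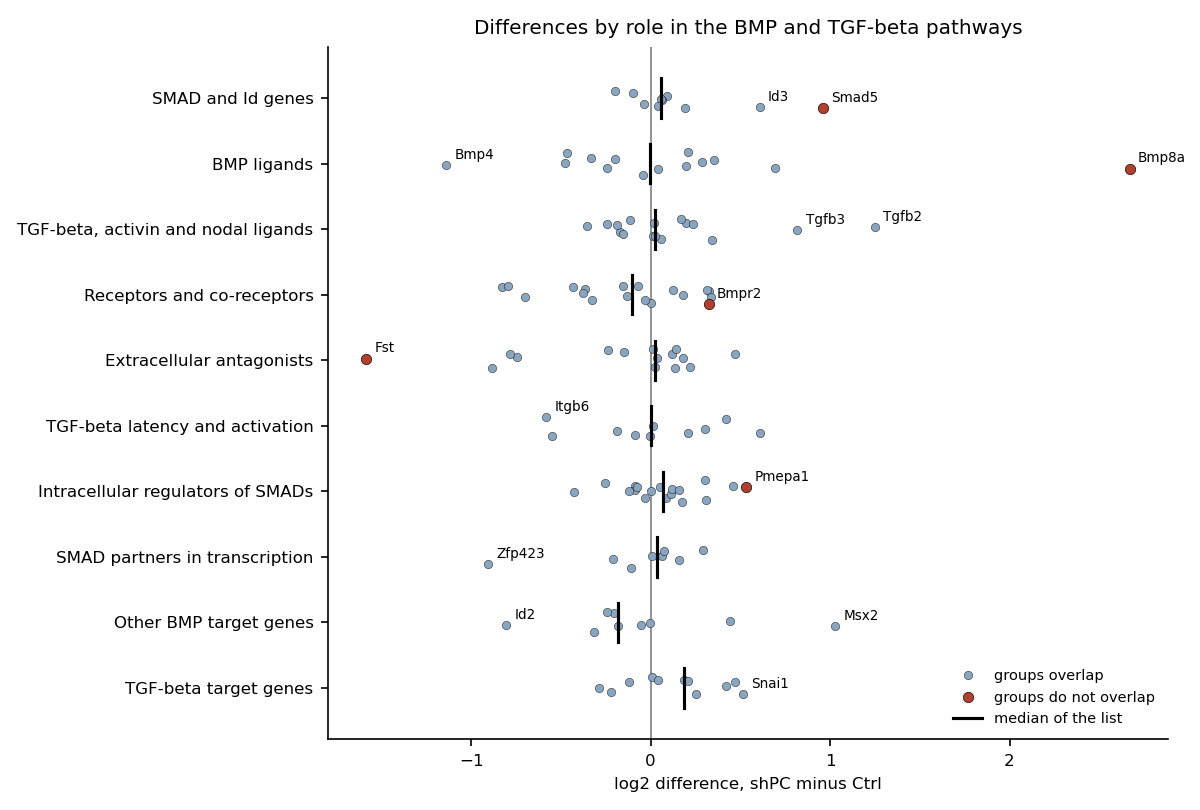
Log2 difference, shPC minus Ctrl, of the 10 SMAD and Id genes and of 119 pathway genes by role, with black ticks for the median of each list and red points for genes whose groups do not overlap. Smad5, Bmp8a, Bmpr2, Pmepa1 and Fst are the red points, and the list medians lie near 0, from -0.18 for other BMP targets to 0.18 for TGF-beta targets.

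Of the 14 BMP ligands, 7 differences were positive and 7 negative. Bmp8a, a BMP ligand of the BMP8 pair, had 9.71, 8.65, 8.97, 8.57 and 11.25 in shPC tumors, against 5.77, 7.68, 5.89, 7.92 and 6.54 in Ctrl tumors. Every shPC tumor was above every Ctrl tumor, shPC tumor 5 was the highest, and the difference of 2.67 (SE 0.57) did not pass the threshold (limma, adjusted p = 0.18). It was 1.17 (SE 1.01) with the leukocyte covariate. Bmp4, which signals through the BMP SMADs in many tissues, had 10.38, 10.76, 10.73, 10.18 and 8.33 in shPC tumors, against 11.32, 10.95, 11.77, 10.31 and 11.72 in Ctrl tumors. The groups overlapped, and the difference of -1.14 (SE 0.45) was -0.70 without shPC tumor 5 and turned to 0.46 (SE 0.70) with the leukocyte covariate. The other ligands with the smallest p, Gdf6 and Bmp8b, were under the 30th percentile on all arrays.

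Of the 16 TGF-beta, activin and nodal ligands, Tgfb2 had 9.95, 10.10, 9.24, 10.01 and 9.36 in shPC tumors, against 8.53, 7.92, 8.57, 7.92 and 9.48 in Ctrl tumors. Ctrl tumor 5 fell among the shPC tumors, and the difference was 1.25 (SE 0.30, limma adjusted p = 0.19). Tgfb3 had 14.61, 14.68, 14.54, 14.30 and 14.90 in shPC tumors, against 13.76, 13.65, 13.17, 14.41 and 13.95 in Ctrl tumors. Here 4 shPC tumors lay above every Ctrl tumor, and the difference was 0.82 (SE 0.21, limma adjusted p = 0.19). It was 0.22 (SE 0.37) with the leukocyte covariate, against 0.99 (SE 0.60) for Tgfb2. Inhba, the subunit of activin A, differed by 0.34 (SE 0.17), and Tgfb1 by -0.12 (SE 0.15).

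Of the 18 receptors and co-receptors, Bmpr2, the type II receptor that BMPs share, had 15.06, 15.22, 15.14, 15.20 and 15.29 in shPC tumors, against 14.74, 14.97, 14.97, 14.99 and 14.62 in Ctrl tumors. The groups did not overlap, but the gap was small and the difference was 0.32 (SE 0.12, limma adjusted p = 0.28). Acvr1, a type I BMP receptor, differed by 0.33 (SE 0.14) with 4 shPC tumors above every Ctrl tumor. Bmpr1a, another type I receptor, differed by 0.32 (SE 0.18), and Bmpr1b by -0.83 (SE 0.32), with signal above the 30th percentile on 2 arrays alone. Tgfbr1 and Tgfbr2, the receptors for TGF-beta, differed by -0.37 (SE 0.19) and 0.18 (SE 0.13).

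Of the 15 extracellular antagonists, Fst, the activin trap follistatin, had 8.81, 8.77, 8.66, 8.10 and 6.09 in shPC tumors, against 9.48, 9.62, 10.15, 9.16 and 9.94 in Ctrl tumors. All shPC tumors lay below all Ctrl tumors, and the difference of -1.58 (SE 0.47, limma adjusted p = 0.22) was -1.08 without shPC tumor 5 and 0.11 with the leukocyte covariate. Bmper and Nbl1, which bind BMPs, differed by -0.89 (SE 0.36) and -0.78 (SE 0.45), and both turned positive with that covariate, at 0.83 and 0.89. Without shPC tumor 5 that of Nbl1 was -0.33. Among the 10 genes of TGF-beta latency, Itgb6, a chain of an integrin that frees TGF-beta, differed by -0.58 (SE 0.17), and the latent TGF-beta binding proteins Ltbp4 and Ltbp3 by -0.55 (SE 0.22) and 0.30 (SE 0.13).

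**Figure D5:**
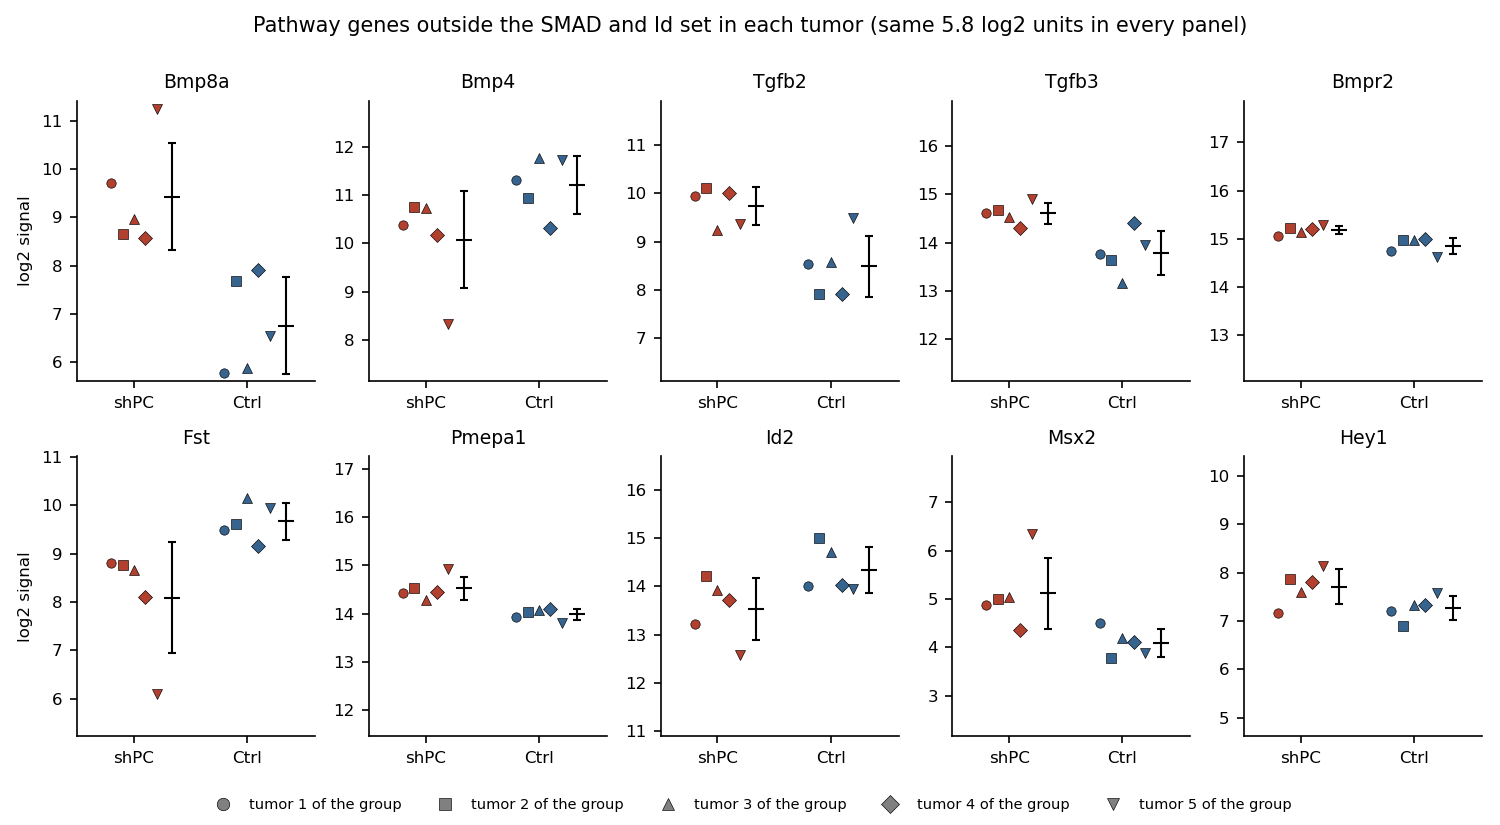
Log2 signal of 10 pathway genes outside the SMAD and Id set in each tumor, shPC left (red) and Ctrl right (blue), all panels spanning the same number of log2 units, with black bars for the mean and 1 SD (n = 5 each). Bmp8a, Bmpr2 and Pmepa1 have every shPC tumor above every Ctrl tumor, Fst has every shPC tumor below, and shPC tumor 5 lies apart at 11.25 in Bmp8a, 8.33 in Bmp4 and 6.09 in Fst.

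Of the 18 intracellular regulators of SMADs, Pmepa1, a TGF-beta-induced membrane protein that holds receptor-regulated SMADs, had 14.42, 14.53, 14.29, 14.46 and 14.92 in shPC tumors, against 13.94, 14.03, 14.08, 14.09 and 13.81 in Ctrl tumors. The groups did not overlap, and the difference was 0.53 (SE 0.14, limma adjusted p = 0.19), or 0.34 with the leukocyte covariate. Tgif1, a corepressor that binds Smad2, differed by 0.46 (SE 0.14), the kinase gene Hipk2 by -0.43 (SE 0.18) and Smurf1, a ubiquitin ligase for BMP SMADs, by -0.25 (SE 0.14). Among 8 SMAD partners in transcription, Runx1 differed by 0.29 (SE 0.14) and Zfp423, a zinc finger cofactor of BMP SMADs, by -0.91 (SE 0.45). The value of Zfp423 was -0.43 without shPC tumor 5 and 0.49 with the leukocyte covariate.

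The other BMP targets did not move as 1 group, with 2 positive and 7 negative differences among 9 genes. Id2, of the same family as Id1 and Id3, had 13.23, 14.21, 13.92, 13.73 and 12.59 in shPC tumors, against 14.01, 15.01, 14.71, 14.04 and 13.94 in Ctrl tumors. Of the shPC tumors 4 lay below every Ctrl tumor, and the difference of -0.81 (SE 0.32, limma adjusted p = 0.29) had the opposite sign to that of Id3 and turned to 0.70 with the leukocyte covariate. Id4 differed by -0.21 (SE 0.34) and Bambi, a decoy receptor, by -0.05 (SE 0.22). The homeobox gene Msx2 differed by 1.03 (SE 0.31), at 4.36 to 6.34 in shPC tumors and 3.78 to 4.51 in Ctrl tumors, and Hey1 by 0.44 (SE 0.19). Msx2 passed the dim filter but was weak, with signal above the 30th percentile on 8 arrays, and its difference was 0.72 without shPC tumor 5. With the leukocyte covariate the difference was 0.43 for Msx2 and 0.10 for Hey1.

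Of the 11 TGF-beta targets, 8 differences were positive and 3 negative, with a median of 0.18. Snai1, a repressor of epithelial genes, differed by 0.52 (SE 0.24), Ccn2, a matricellular factor, by 0.42 (SE 0.23), and Col1a1, the collagen I chain, by 0.25 (SE 0.17). Snai2, the close relative of Snai1, differed by -0.29 (SE 0.17). Snai1 was at -0.14 with the leukocyte covariate, Ccn2 at 0.22 without shPC tumor 2, and Col1a1 at 0.13 without shPC tumor 1.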

How the data were processed

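Total RNA of 5 shPC and 5 Ctrl tumors was prepared with the WT PLUS kit for Clariom S arrays, and quality control was done by the authors in Transcriptome Analysis Console. The values were used as deposited and are array signals, read here as log2. Their base and their normalization are not given in the sources used here, and every fold depends on that reading. Of 22206 probe sets, 19572 name 1 gene while 2634, without an entry in the annotation table, were not used. For 55 genes with several probe sets the one with the highest mean was used, which left 19505 genes. Groups were taken from the labels, no tumor was left out, and the number of arrays limits the precision.

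Groups were compared with limma 3.58.1 in R 4.3.3 (shPC minus Ctrl, default moderation, no filter), with Benjamini-Hochberg adjustment over all genes and a threshold of 0.05. SE is the error of that fit. The script was tested on simulated data. The members and lists were chosen with earlier results of these data known, and the SMAD and Id genes therefore carry no p-value. Genes named were these 10, Pcx, up to 4 of each pathway list with the smallest p, and the 5 most and 5 least like Smad5 among genes above the 30th percentile of at least 5 arrays. Tgfb1, Tgfbr1, Tgfbr2, Bmpr1a, Id4, Bambi and the marker genes are named for their role, after their values were seen. Promoters came from a RefSeq table on GRCm38.p6, searched in Python 3.11.15. Smad2, Smad4, Smad7 and Id1 promoters and protein sequences were not analysed here. Alternatives were another scaling, a dim filter, other variance moderation, array weights, the mean of probe sets, replicate number as a block, marker means as covariates, the methods' t-test and each tumor left out.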

Additional observations from a re-analysis of the deposited data

Results flagged for a closer look

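In 5 of 94 sets of 5 tumors tested (the 10 SMAD and Id genes, Pcx and the named pathway genes, in each group), 1 tumor lay far from the others by Dixon's criterion (gap over range above 0.71), and chance alone gives about 1 in 20. Among the SMAD genes this was Smad7, at 7.24 in Ctrl tumor 1 against 7.82 to 8.02 in the other Ctrl tumors. Ctrl tumor 1 also had a skeletal muscle marker mean of 9.90, against 4.04 to 5.07 in the others, whose part in this value was not tested. The other 4 were the lowest values of shPC tumor 5. Bmp4 was at 8.33 there and at 10.18 to 10.76 in the other shPC tumors. Fst was at 6.09 there against 8.10 to 8.81. Zfp423 was at 6.26 against 8.41 to 8.94, and Hipk2 at 12.50 against 12.83 to 12.96. The same tumor had the lowest T and NK cell marker mean of all tumors, 6.72, and the lowest array median, 7.16, whose part in these values was not tested.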

How the results depend on the processing

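Across 21 alternatives (20 for Smad9, which the dim filter removes), Smad5, Id3, Smad3 and Smad4 kept their sign in all. The dim filter, trend and robust variances, the mean of probe sets and the replicate block left these differences as they were. No sign could turn there, nor for Smad5 when 1 tumor was left out, since its groups do not overlap. Smad5 ranged from 0.38 to 1.06, Id3 from 0.39 to 0.93, Smad3 from 0.09 to 0.36 and Smad4 from 0.007 to 0.22. The sign changed in 7 alternatives for Id1, 6 for Smad1, 4 each for Smad6 and Smad7, and 1 each for Smad2 and Smad9. With arrays centred on their median, which shifts the median of all genes to 0.14, Smad5 was 1.06 and Id1 0.00. The number of genes past the threshold was 0 in the fit used here, 1 with arrays centred, 10 with trend and robust variances (5 higher, 5 lower) and 24 with the endothelial mean as a covariate (6 higher, 18 lower). With 1 tumor left out it ranged from 0 to 4. These were Cmpk2, Ifng, Mx1 and Ifit1 (lower) without shPC tumor 4, Chst2 (higher) without shPC tumor 2 and Gzmc (lower) without Ctrl tumor 4, genes named after their values were seen. Of the pathway genes 1, Bmp8a, passed with the endothelial covariate (2.98, limma adjusted p = 0.0393, the lowest over its alternatives, which reach 1.0). Under every other alternative 0 pathway genes passed. Unadjusted, 2 to 26 of them passed, and 20 of 119 in the fit used here, where 14% of all genes did. The 2 came with the leukocyte covariate and the 26 with the endothelial covariate. The unadjusted count over all genes was also the lowest and the highest there, so nothing is read from this range. The leukocyte covariate turned the sign of Smad9 (0.065, SE 0.31), Smad2 (-0.23, SE 0.24), Id1 (0.24, SE 0.71), Bmp4 (0.46, SE 0.70) and Bmp8b (-0.15, SE 0.37). It also turned that of Fst (0.11), Bmper (0.83), Nbl1 (0.89), Ltbp1 (-0.33), Hipk2 (0.20), Zfp423 (0.49), Id2 (0.70) and Snai1 (-0.14). Of the 36 named pathway genes no other alternative reversed one. The leukocyte means of the groups do not overlap, so the fit with that covariate separated group from leukocyte level poorly. No reversal is read from these turns. Same-numbered tumors deviated together by correlations of 0.04 to 0.28 with 2 of 5 above 0.1, and the numbers were not taken as pairs. Yet tumors of the same number held the same rank within their group for Smad5, and likewise for the leukocyte mean. The replicate block lowered the SE of Pcx from 1.19 to 0.51 and of Smad5 from 0.16 to 0.13. It raised that of Id3 from 0.31 to 0.33 and of Id1 from 0.36 to 0.40. Whether the numbers mark pairs was not tested further. With the replicate block, 0 genes passed and 3012 were under 0.05 unadjusted, against 2740 without it. The causes were not tested. Dim genes such as Smad9 have no reliable direction.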
